A study of Mus musculus with 117 samples.

Results

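Astrocyte RNA and the RNA of the other cells of the same tissue were compared in mouse spinal cord 5 days after a spinal cord injury (SCI). Aldh1l1-CreERT2-RiboTag mice carry a tamoxifen-inducible Cre under the promoter of Aldh1l1, an enzyme of folate metabolism that marks astrocytes, and a ribosomal protein Rpl22 allele that gains an HA tag where Cre has acted. Ribosomes with the tag were pulled down with an anti-HA antibody, and the RNA on the beads made the astrocyte library of a mouse, while the RNA left in the supernatant of the same lysate made its flow-through library. The 8 libraries titled 5d SCI RiboTag 1 to 4 and 5d SCI Flow 1 to 4 were chosen by their titles, out of 117 in the series, and same-numbered libraries were taken as 1 mouse, as the series' design describes. These young adult mice on a C57BL/6 background received a complete crush of the thoracic cord at T10, were perfused, and gave a tissue block that reached 1 mm rostral and 1 mm caudal of the lesion centre, with the lesion core inside it. Their libraries are labelled female, apart from flow-through library 4, which is labelled male. The comparison groups, of the same genotype, included 4 uninjured mice labelled female and 4 males at 5 days after SCI, each mouse with an astrocyte and a flow-through library. A further group held 5 astrocyte and 5 flow-through libraries at 2 days after SCI, labelled female, a label that their counts put in doubt. The data there also went against the pairing by number for libraries 2 and 3. All labelled mice carried the same Cre and RiboTag alleles. Other cell types would enter the astrocyte library if Cre had acted in them under tamoxifen, or if they took up tagged ribosomes. Neither was tested here. By immunostaining after SCI, the paper found no HA in this line in astrocytes that came from oligodendrocyte precursors.

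Astrocytes take up glutamate and GABA released by neurons, buffer potassium, move water, supply lipids and hold the blood-brain barrier. After a crush they divide around the lesion and become a border between neural tissue and the fibrotic, inflamed core, where blood-borne macrophages clear myelin and dead cells. At this time, therefore, the flow-through holds RNA of neurons and oligodendrocytes together with RNA of vessels, fibroblasts, microglia and invading immune cells. A gene is called enriched here when its astrocyte library held more of it than the flow-through. That is a ratio of 2 pools, and in such bulk samples fewer cells of a type and less RNA per cell cannot be told apart.

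The 4 astrocyte libraries held 97695228 to 112941084 counts and the 4 flow-through libraries 93371943 to 107121661. Levels are given as counts per 1000000 (CPM) on library sizes scaled by the trimmed mean of M values (TMM), and levels of different genes are set side by side only after division by exon length in kilobases (FPKM). Libraries of a fraction correlated with each other at r = 0.984 to 0.989 across genes and with the other fraction at 0.886 to 0.900. The label of flow-through library 4 gives the sex as male, whereas its 4702 counts of Xist and 2 of Ddx3y resembled the libraries labelled female. Flow-through library 2 stood apart in the ribosomal RNA entry Rn45s, which took 1.41% of its counts against 0.175% to 0.227% in the other 3 and 4.26% to 10.6% in the astrocyte libraries.

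Of 17614 genes tested, 2815 were higher in the astrocyte libraries (16%) and 3388 were lower (19.2%) at a false discovery rate (FDR) under 0.01 and at least a 2-fold difference in edgeR's quasi-likelihood test. Without TMM, on total counts only, the median log2 ratio of all genes moved from -0.02 to -0.32, and the calls split into 1917 higher and 4341 lower. Counts of members below are read against 16% and 19.2%, and every log2 ratio is astrocyte over flow-through. The labelled cell type was checked first against its markers. Of 16 astrocyte markers, 15 were higher and 0 lower, with a median log2 ratio of 3.17. S100b, a calcium-binding protein, was the remaining marker and was singled out after its values were seen: it had 832 to 1002 CPM in the astrocyte libraries and 856 to 971 CPM in the flow-through, a log2 ratio of 0.05 ± 0.09 (SE, n = 4 mice).

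Aldh1l1 itself (chromosome 6, 90550768 to 90599171, GRCm38) had 302, 256, 262 and 338 CPM in the astrocyte libraries of mice 1 to 4 and 32.4, 32.3, 37.2 and 38.2 CPM in their flow-through. The fractions did not overlap, and the log2 ratio was 3.05 ± 0.11 (SE, n = 4 mice; edgeR adjusted p = 3.0e-11). Rpl22, the gene of the tagged protein, went the other way, with a log2 ratio of -0.97 ± 0.10 and 117 to 151 CPM on the beads against 233 to 291 CPM in the flow-through. Its transcript comes from the Cre-recombined and the intact alleles alike, so its level does not measure how many ribosomes carried the tag.

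**Figure D1:**
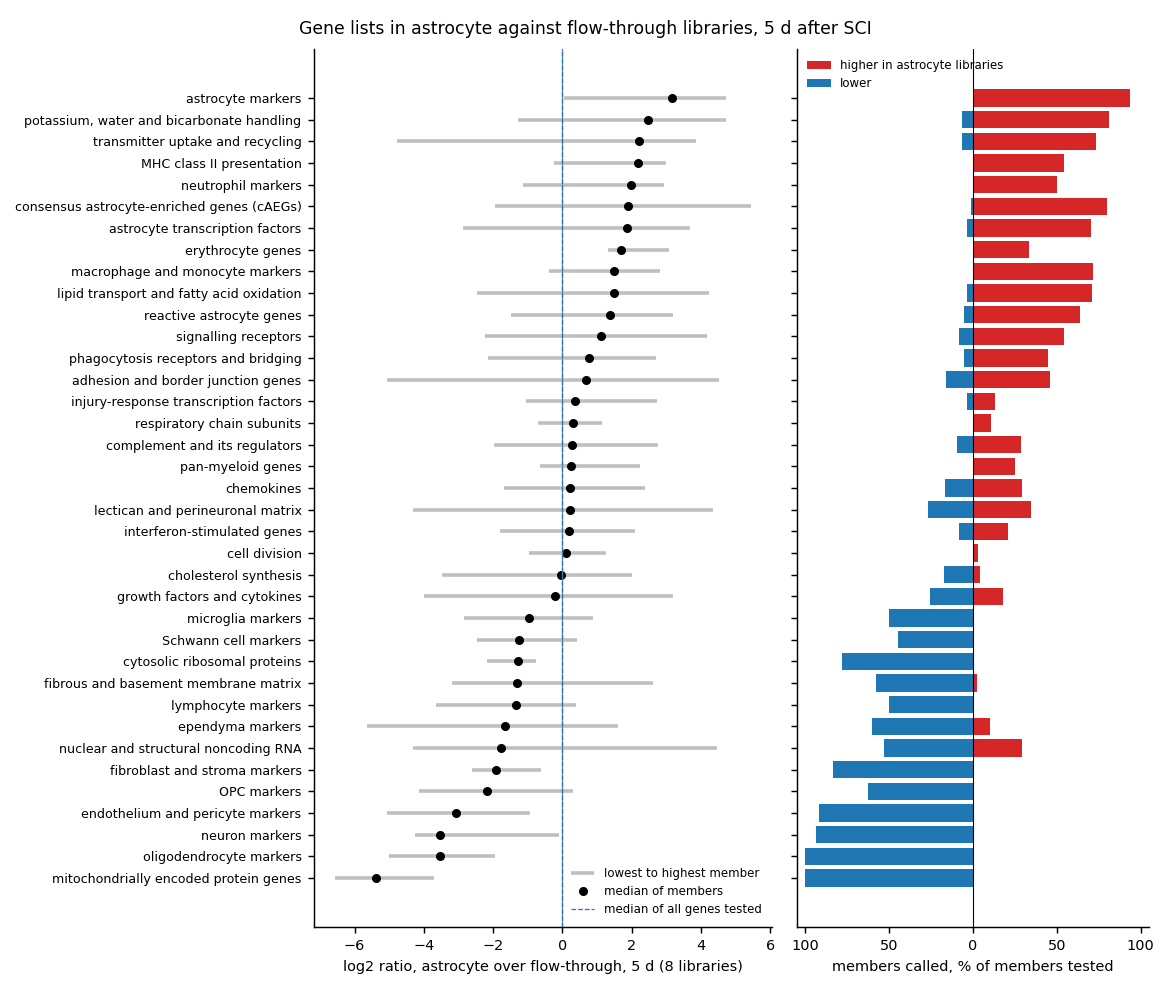
The left panel plots the log2 ratio of astrocyte over flow-through libraries at 5 d for every gene list, with the black point at the median of the members tested and the grey line from the lowest to the highest member. The right panel shows the percent of members called higher (red, to the right) or lower (blue, to the left). Astrocyte markers lie at the top with a median of 3.17, and the 13 mitochondrially encoded protein genes at the bottom with a median of -5.38.

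Slc39a12, a zinc transporter (chromosome 2, 14388316 to 14494977), had the highest ratio among called genes with at least 5 CPM in the higher fraction and no overlap between fractions. It had 146, 119, 93.8 and 159 CPM in the astrocyte libraries and 3.52, 1.78, 1.7 and 4.77 CPM in the flow-through, for a log2 ratio of 5.46 ± 0.40. Aqp4, the water channel of astrocyte endfeet, had 2294, 1674, 1254 and 2078 CPM on the beads and 83.9, 49.7, 50.9 and 89.1 CPM in the flow-through, for a log2 ratio of 4.74 ± 0.27. Both genes were lowest in mice 2 and 3, on the beads as well as in the flow-through. Gpam, an enzyme of glycerolipid synthesis, followed at 4.66, then the sodium bicarbonate cotransporter Slc4a4 at 4.63, the actin-binding Nebl at 4.61, the lysine-degrading enzyme Aass at 4.55 and the integrin Itgb8 at 4.52. The unnamed transcript E030003E18Rik reached 4.62.

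Among 16 genes that handle potassium, water and bicarbonate, 13 were higher and 1 was lower, with a median log2 ratio of 2.47. Gja1, the connexin that joins astrocytes into a network, had a ratio of 4.23 ± 0.24 and means of 706 and 37.6 CPM in the 2 fractions. The member called lower was Slc12a2, a sodium, potassium and chloride cotransporter, at -1.28. Of 15 genes of transmitter uptake and recycling, 11 were higher and 1 was lower. Slc1a2, the main glutamate transporter of astrocytes, had 2574, 1876, 1776 and 2445 CPM on the beads and 158, 124, 146 and 187 CPM in the flow-through, for a log2 ratio of 3.82 ± 0.16. The GABA transporter Slc6a11 reached 3.86 ± 0.17 and Slc7a10, which carries serine and glycine, 3.60 ± 0.14. Slc38a5, a glutamine transporter, was the exception at -4.77 ± 0.17, with 0.456 to 0.636 CPM on the beads and 13 to 18.6 CPM in the flow-through.

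Of 27 transcription factors of the astrocyte lineage, 19 were higher and 1 was lower, with a median log2 ratio of 1.88. The factors with the highest ratios were Rfx4 at 3.69, the differentiation inhibitor Id4 at 3.55 and the nuclear receptor Rorb at 3.27. Nkx6-2, a homeobox factor also known in oligodendrocytes, was lower at -2.88. Of 30 transcription factors known from injury responses, 1 was lower, below the 19.2% of all genes tested, and 4 were higher, near the 16% of all genes tested. Hif1a, the oxygen-sensing factor, was the clearest of these, with 201, 211, 155 and 172 CPM on the beads against 30.4, 23.5, 25.8 and 31.1 CPM in the flow-through (log2 ratio 2.74 ± 0.12). Nfe2l2, a regulator of the antioxidant response, had a ratio of 1.75 and the AP-1 subunit Fosl1 of 1.42, whereas Irf7, a factor of the interferon response, was lower at -1.06.

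Genes known from reactive astrocytes were mostly enriched: 25 of 39 were higher and 2 were lower, with a median of 1.38. Gfap is an intermediate filament that the paper detected in astrocytes of uninjured spinal cord too. It had 21922, 19935, 17737 and 27748 CPM on the beads against 2180, 2277, 2005 and 3017 CPM in the flow-through. Its log2 ratio of 3.20 ± 0.17 varied between 3.13 and 3.33 from mouse to mouse. The protease inhibitor A2m and the crosslinking enzyme Tgm1 each had a ratio of 3.10. Serpina3n, an inhibitor of serine proteases often used as a marker of reactive astrocytes, was called lower instead. It had 621, 433, 439 and 767 CPM on the beads and 1574, 1708, 1428 and 1538 CPM in the flow-through, so that all 4 mice showed more in the flow-through (log2 ratio -1.47 ± 0.17; edgeR adjusted p = 3.6e-06). Slc10a6, a steroid sulfate transporter, was the other member called lower, at -1.48 with means of only 0.449 and 1.25 CPM.

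**Figure D2:**
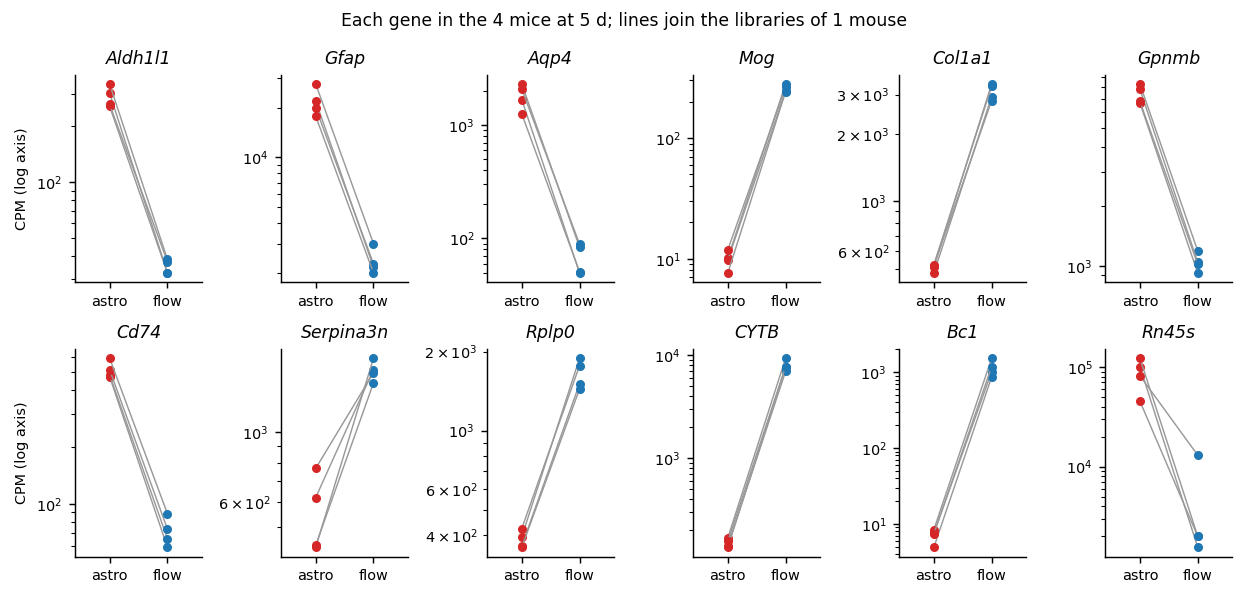
CPM of 12 genes in each mouse at 5 d on log axes, with astrocyte libraries in red, flow-through in blue and a line joining the 2 libraries of a mouse. Serpina3n falls on the opposite side from Gfap and Aldh1l1 in all 4 mice, and Rn45s shows flow-through library 2 far above the other flow-through libraries, at 13037 CPM.

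Of 48 signalling receptors, 26 were higher and 4 lower. Of 39 growth factors and cytokines, a list not limited to ligands of those receptors, 7 were higher and 10 lower, and the difference between the lists was not tested. The leading receptors were Ptch1, which binds hedgehog ligands, at 4.16 ± 0.25, the endothelin receptor Ednrb at 3.72 ± 0.12 and the FGF receptor Fgfr3 at 3.69 ± 0.15. Among the lower ones were the PDGF receptors Pdgfra (-1.90) and Pdgfrb (-1.73), known from oligodendrocyte precursors and from pericytes, and Fgfr4 (-2.22). On the ligand side, Wnt7a had a ratio of 2.95 and the EGF-family ligand Hbegf of 1.96, and Fgf9 (-4.01), Bmp4 (-3.74) and Tgfa (-2.40) were lower. Tgfa had 20.1, 17.5, 21.9 and 16.1 CPM on the beads and 114, 91.9, 99.2 and 94.3 CPM in the flow-through.

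Of 31 genes of lipid transport and fatty acid oxidation, 22 were higher and 1 was lower, with a median of 1.49. The elongase Elovl2 had 52.8, 48.4, 42.2 and 55.2 CPM on the beads and 2.72, 2.16, 2.44 and 3.23 CPM in the flow-through (log2 ratio 4.23 ± 0.14). The acyl-CoA synthetases Acsbg1 and Acsl6 followed at 3.92 and 3.41. The lower member was Ch25h, the cholesterol 25-hydroxylase, at -2.46. Cholesterol synthesis showed no such lean: 1 of 23 genes was higher and 4 were lower, and the median of -0.04 became -0.34 on total counts only. Idi1, an isomerase of the isoprenoid pathway, was the higher one at 2.02, and Fdps (-1.21), a synthase of the same pathway, was among the lower ones.

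The lists of matrix genes differed, with fibrous matrix mostly lower and lectican matrix mixed. Of 38 genes of fibrous and basement membrane matrix, 22 were lower and 1 was higher, the metalloprotease Mmp19 at 2.63. Col1a1, the main chain of fibrillar collagen (chromosome 11, 94936224 to 94953042), had 477, 508, 514 and 521 CPM on the beads and 2940, 3346, 2821 and 3264 CPM in the flow-through, for a log2 ratio of -2.61 ± 0.09. Of 26 lectican and perineuronal matrix genes, 9 were higher and 7 lower, and their median of 0.21 turned to -0.08 on total counts only. Thbs1, the secreted thrombospondin that promotes synapse formation, had 913, 1320, 977 and 846 CPM on the beads against 76.1, 69.6, 76.4 and 84.3 CPM in the flow-through (log2 ratio 3.73 ± 0.14). The heparan sulfate proteoglycan Gpc5 (4.34) and the SPARC-like protein Sparcl1 (2.73) also rose above the flow-through. Acan, the aggrecan of perineuronal nets, was at 0.311 to 0.835 CPM on the beads and 9.95 to 16.5 CPM in the flow-through, a log2 ratio of -4.32 ± 0.27. The link proteins Hapln2 (-3.73) and Hapln4 (-2.47) lay on the same side.

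Of 37 adhesion and border junction genes, 17 were higher and 6 lower. The integrin chains Itgb8 (4.52) and Itga6 (3.21) and the claudin Cldn10 (3.42) led, while Itgb4 (-3.08), the neural adhesion protein L1cam (-2.38) and the endothelial claudin Cldn5 (-5.08) were lower. Genes of engulfment counted 9 higher and 1 lower of 20, with a median of 0.77. Within the TAM receptors, which bind dying cells through bridging proteins, Mertk was higher at 2.05 ± 0.14 and Tyro3 lower at -2.15 ± 0.11, and Axl, added after its values were seen, was higher at 1.50 ± 0.10 with means of 349 and 124 CPM. Mertk had 83.7, 90.7, 69.5 and 71.3 CPM on the beads against 23.2, 18.7, 13.8 and 20.4 CPM in the flow-through, and Tyro3 had 17.2, 12.3, 15.2 and 13.2 CPM against 68.5, 67.9, 59 and 62.5 CPM. The lipid exporter Abca1 (2.69) and the scavenger receptor Cd36 (2.17) were also higher.

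Markers of neurons, oligodendrocytes, vessels and stroma were mostly lower in the astrocyte libraries. All 12 oligodendrocyte markers were lower, with a median of -3.54. Mog, a protein of the myelin surface, had 10.1, 9.8, 11.9 and 7.62 CPM on the beads and 280, 244, 262 and 242 CPM in the flow-through (log2 ratio -4.70 ± 0.13). Of 16 neuron markers, 15 were lower with a median of -3.54, and Nefh, the heavy neurofilament, was at -4.26. The remaining neuron marker, Stmn2, was singled out after its values were seen: it had 183 to 252 CPM on the beads and 211 to 263 CPM in the flow-through, a log2 ratio of -0.11 ± 0.11. Lower were also 5 of 8 markers of oligodendrocyte precursors (OPC), 11 of 12 of endothelium and pericytes, 10 of 12 of fibroblasts and stroma and 4 of 9 of Schwann cells. Sox10 (-4.15), a factor of the oligodendrocyte and Schwann cell lineages, and Cldn5 (-5.08), a tight junction protein of brain endothelium, were the most depleted among them together with Neu4 (-3.90). Of 10 ependyma markers 6 were lower and 1 was higher, namely Foxj1, the regulator of motile cilia, at 1.62.

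Macrophage and monocyte markers were higher: 10 of 14 were called and none was called lower, with a median log2 ratio of 1.50. Summed over the list, the 4 astrocyte libraries held 44910 to 55600 CPM and the flow-through libraries 14220 to 16310 CPM. A large part of the sum on the beads was Spp1, whose level is given below. The paper reports several members of this list in reactive astrocytes too, among them Spp1, Lgals3, Lyz2, Gpnmb, Arg1 and Ccr2. Neither the sum nor the single genes below are therefore a measure of macrophage RNA, and which cells they came from was not tested. Gpnmb, a glycoprotein of lipid-laden macrophages, had 8303, 7811, 6662 and 6782 CPM on the beads and 1189, 1043, 921 and 1020 CPM in the flow-through (log2 ratio 2.82 ± 0.12). Lyz2, the lysozyme of myeloid cells, had 12703, 15804, 15515 and 12201 CPM against 2338, 3014, 3006 and 2481 CPM (2.37 ± 0.13). The chemokine receptor Ccr2, a marker of infiltrating monocytes, had 20.6 to 28.2 CPM on the beads and 1.86 to 4.92 CPM in the flow-through (2.80 ± 0.24). On the FPKM scale the level of Lyz2 in the astrocyte libraries was 13298 ± 1766 (SD, n = 4) and that of Gfap 5344 ± 1051.

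Other myeloid lists differed among themselves. Of 16 pan-myeloid genes, 4 were higher and 0 lower, and their median of 0.25 turned to -0.06 on total counts only. The called ones were Ptprc, the leukocyte phosphatase CD45, at 2.25 ± 0.10, the oxidase subunit Cybb at 2.23, the protease Ctss at 2.19 and Itgam. Summed over the list, the astrocyte libraries held 9547 to 11780 CPM and the flow-through 7452 to 9008 CPM. Microglia markers lay on the opposite side, with 5 of 10 lower and 0 higher. Tmem119, a membrane protein of microglia, had 56.1, 55.1, 55.6 and 50.5 CPM on the beads against 152, 168, 155 and 151 CPM in the flow-through (log2 ratio -1.53 ± 0.07). Of 12 neutrophil markers, 6 were higher and none lower, with a median of 1.99, at summed levels of 104.1 to 313.8 CPM against 20.38 to 73.2 CPM. Of 10 lymphocyte markers, 5 were lower and none higher, with a median of -1.33. Of 6 erythrocyte genes, 2 were higher, and the haemoglobin gene Hba-a1 ranged from 8.17 to 94.5 CPM among the astrocyte libraries with an adjusted p of 0.21 by edgeR.

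Immune functions are therefore given with those marker levels beside them, and the part of macrophage RNA in them was not tested. Of 11 genes of MHC class II presentation, through which antigen is shown to helper T cells, 6 were higher and none lower, with a median of 2.19. Cd74, the invariant chain, had 473, 483, 515 and 593 CPM on the beads and 58.7, 65.3, 73.4 and 88.6 CPM in the flow-through, for a log2 ratio of 2.85 ± 0.13. The chains H2-Ab1 and H2-Eb1 stood at 3.00 ± 0.11 and 2.82 ± 0.12, and H2-Aa, named after its values were seen for its promoter below, at 2.64 ± 0.12. H2-DMb1, which helps load peptide and was also picked for its promoter, had 27.4 to 32.3 CPM on the beads and 22.3 to 25.9 CPM in the flow-through, a log2 ratio of 0.32 ± 0.08 under the 2-fold threshold.

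Promoters of class II genes carry a conserved module whose Y box holds the reversed CCAAT letters, and sequence is shown here to let the genes that shared high ratios be set beside a member that did not. RefSeq windows (GRCm38.p6) ran from 250 bases before to 50 bases after the start. The letters TGATTGG were found on either strand in 1472 of 13228 tested genes with a window (11.1%). Of the 7 members of the class II presentation list with a window, 3 held them (42.9%), and H2-DMa, Ctss, Ifi30 and Cd80 did not. Ctss, Ifi30 and Cd80 are not genes of class II chains. No window was at hand for H2-Ab1, Cd74, Ciita and Cd86. The 80 bases from 120 to 41 before the start are printed in the direction of the gene, with the letters TGATTGG in capitals.
H2-Aa (chr17:34287864-34287943, minus strand): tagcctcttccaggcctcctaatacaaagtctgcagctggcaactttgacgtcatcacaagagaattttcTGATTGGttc
H2-Eb1 (chr17:34305747-34305826, plus strand): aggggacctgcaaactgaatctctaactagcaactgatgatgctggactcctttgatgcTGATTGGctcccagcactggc
H2-DMb1 (chr17:34153071-34153150, plus strand): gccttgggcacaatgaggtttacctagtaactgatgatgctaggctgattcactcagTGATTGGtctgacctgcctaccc
The letters stood 50, 61 and 63 bases before the start of H2-Aa, H2-Eb1 and H2-DMb1. They were present in H2-Aa and H2-Eb1, which were called higher, and in H2-DMb1, which was not. Among the chain genes with a window, H2-DMa did not hold them. The window of Ctss, a protease of the same list called higher at 2.19, did not hold them either. A match of letters is a description of the sequence and not a bound site.

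Of 24 chemokines, 7 were higher and 4 lower, with a median of 0.22 that turned to -0.08 on total counts only. The monocyte attractant Ccl2 had a log2 ratio of 1.62 ± 0.11, platelet factor Pf4 of 1.73 and Ccl22 of 1.78, whereas Ccl5 (-1.69), Cxcl12 (-1.50) and Ccl4 (-1.29) were lower. Of 21 complement genes, 6 were higher and 2 lower, with a median of 0.28 that turned to -0.02 on total counts only. C3, the central component, had 321, 272, 282 and 421 CPM on the beads and 35, 43.4, 48.6 and 63.6 CPM in the flow-through (log2 ratio 2.77 ± 0.19). The stabilising factor Cfp had a ratio of 1.85, and the protease Masp1 (-1.97) and the decay factor Cd55 (-1.06) were lower. Interferon-stimulated genes counted 5 higher and 2 lower of 24, near the background, and their median of 0.20 turned to -0.09 on total counts only.

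Cell division genes, which mark proliferating cells of any type, were almost evenly spread over the fractions. Of 36 genes, 1 was higher and none was lower, and the median of 0.11 turned to -0.19 on total counts only. Pcna, the sliding clamp of DNA replication, had 147, 149, 162 and 142 CPM on the beads against 94, 85.9, 92.7 and 86.3 CPM in the flow-through, a log2 ratio of 0.74 ± 0.07 that stayed under 2-fold. Against uninjured mice, the median level of the list was 4.37 log2 units higher in the astrocyte libraries and 4.36 higher in the flow-through.

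The lowest median among the lists was that of transcripts of the mitochondrial genome, which are translated by ribosomes inside the organelle. This group of 13 protein genes was put together after its values were seen, because it filled most of the lowest places. All 13 were lower, with log2 ratios from -6.57 to -3.71 and a median of -5.38, and summed levels were 767.8 to 1041 CPM on the beads against 23840 to 33980 CPM in the flow-through. CYTB, the cytochrome b of complex III, had 167, 135, 140 and 154 CPM on the beads and 9332, 7687, 6964 and 7735 CPM in the flow-through (log2 ratio -5.73 ± 0.14). ND6, a complex I subunit, was lowest at -6.57 ± 0.16. Respiratory chain subunits made from nuclear genes and translated in the cytosol gave a median of 0.31, with 3 of 27 higher, among them Sdha (1.15) and Ndufs1 (1.00), and none lower. On total counts only, that median was 0.00064, and Sdha (0.84) and Ndufs1 (0.70) were no longer called.

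Cytosolic ribosomal protein genes were also lower: 25 of 32 were called, none was higher, and the median was -1.28. Rplp0, a stalk protein of the large subunit, had 364, 394, 424 and 359 CPM on the beads and 1508, 1885, 1767 and 1440 CPM in the flow-through (log2 ratio -2.10 ± 0.11). Rplp1 (-2.17) and Rpsa (-2.03) were alike. In a list of noncoding RNAs that also held the protein-coding gene Lars2, 9 of 17 members were lower and 5 higher, Lars2 among the higher. Outside that list, Bc1, a short cytoplasmic RNA of neurons and the lowest gene among those with at least 5 CPM in the higher fraction and no overlap, had 7.5, 4.89, 8.38 and 7.36 CPM on the beads and 1019, 868, 1531 and 1189 CPM in the flow-through (log2 ratio -7.36 ± 0.24). The nuclear RNA Meg3 was at -3.50 ± 0.18. The secretory granule protein Resp18 was the lowest coding gene of the nuclear genome by the same rule, at -5.42.

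Ribosomal RNA entries went the opposite way and varied widely between libraries. Rn45s had 101030, 81956, 122540 and 45429 CPM on the beads and 1548, 13037, 2000 and 1996 CPM in the flow-through, for a log2 ratio of 4.24 ± 0.92 (edgeR adjusted p = 4.8e-03). Rn18s at 4.18 and Lars2, whose counts moved with those of Rn45s from library to library, at 4.45 had the same outlying flow-through library 2. With the mouse as a block, all 3 lost the call, at log2 ratios of 4.84, 4.77 and 4.88.

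**Figure D3:**
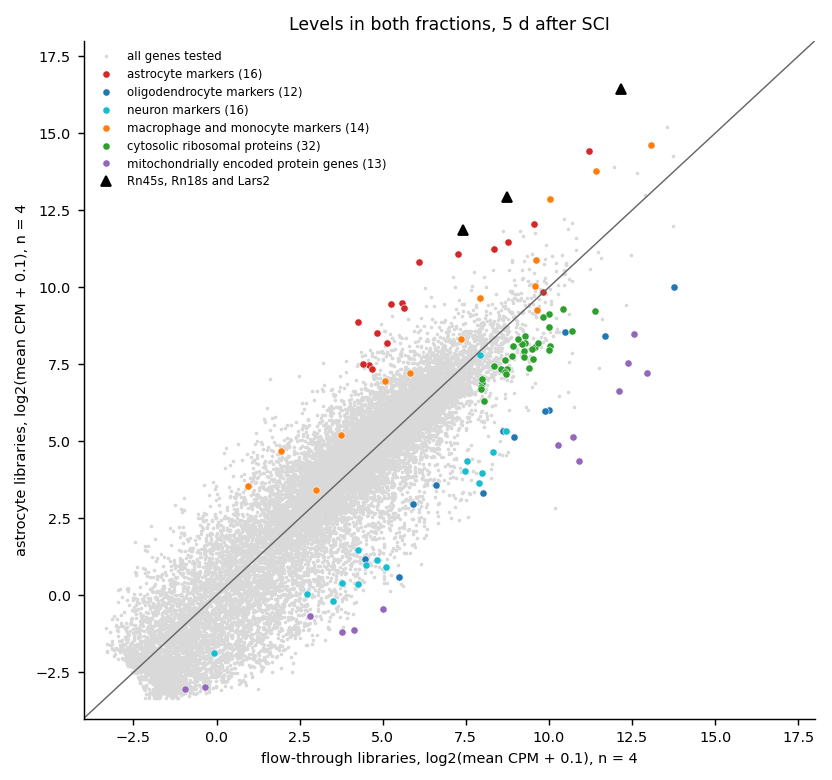
Mean level of each gene tested in the 4 flow-through libraries (x axis) against the 4 astrocyte libraries (y axis) at 5 d, both as log2(mean CPM + 0.1), with the diagonal of equal levels. Most astrocyte and macrophage markers lie above the diagonal, most oligodendrocyte and neuron markers, ribosomal proteins and mitochondrially encoded genes below it, and Rn45s, Rn18s and Lars2 above it.

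The most abundant messages of the astrocyte libraries were not those of astrocyte markers alone. Apoe, the lipid carrier made by astrocytes and by macrophages, had 38225, 35958, 39492 and 35876 CPM on the beads against 11653, 12935, 11718 and 11701 CPM in the flow-through (log2 ratio 1.64 ± 0.10). Spp1, or osteopontin, had a mean of 25125 CPM on the beads and a ratio of 1.55. Among lysosomal genes, Psap had a ratio of 1.94 and Ctsb of 1.07 (0.77 and not called on total counts only), and Ctsd was at 0.51, under the 2-fold threshold. Actb, the cytoplasmic actin, was near parity at 0.10 ± 0.10 and at -0.20 on total counts only.

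The same comparison was made in the 4 males at 5 days. Of 17728 genes tested there, 2415 were higher (13.6%) and 2966 lower (16.7%). Over the 17402 genes tested in both, 2266 were called higher in both, which is 81.0% of the calls in the first group of mice and 94.1% of those in males, and 2743 were called lower in both (82.3% and 94.1%). No gene was called in opposite directions. Astrocyte markers gave 15 higher of 16 with a median of 3.19, macrophage markers 10 higher of 14 with a median of 1.38, and class II genes 6 higher of 11 with a median of 2.10. The difference between males and the first group was tested itself in edgeR over 18452 genes, and 0 genes passed, while 376 had an unadjusted p under 0.05 and DESeq2 called 0 as well.

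To see how enrichment at 5 days differed from that of uninjured cord, the difference of the log2 ratios was tested over 18613 genes. It was larger at 5 days for 2573 genes (13.8%) and smaller for 1438 (7.73%). With DESeq2's size factors (RLE) in place of TMM, 2148 genes had the larger ratio, and the share of calls in that direction was 53.9% instead of 64.1%. Among the 16 astrocyte markers, 13 lost enrichment and none gained. Slc1a2 went from a mean ratio of 5.84 ± 0.14 (SD over 4 mice) in uninjured mice to 3.82 ± 0.19, with its astrocyte level at 14524 CPM before injury and 2148 CPM at 5 days. Gfap had ratios of 4.05 ± 0.16 and 3.21 ± 0.09, a difference of -0.83 that did not reach 2-fold, and its mean level was 17359 CPM on the beads of uninjured mice and 21641 CPM at 5 days, against 1052 and 2330 CPM in the flow-through.

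Consensus astrocyte-enriched genes (cAEGs) are a list of 429 genes that the study took from published astrocyte data and checked for enrichment in its own healthy astrocytes. As that check used uninjured libraries of this series, the direction of the list there is not independent evidence, and any choice of genes for high ratios in healthy astrocytes favours a lower ratio elsewhere. At 5 days, 342 of the 429 were still called higher (79.7%) and 6 were called lower, with a median ratio of 1.91. The ratio was smaller than in uninjured mice for 314 (73.2%) and larger for 0 by the test of the difference. For 246 of these 314, all 4 astrocyte libraries at 5 days lay below all 4 uninjured ones. For 184 all flow-through libraries lay above, and 116 genes did both. Over all 17614 genes tested, 5376 lay below in the astrocyte libraries and 5859 lay above in the flow-through. The 314 were picked for a smaller ratio, which favours both patterns. In males, 344 of the cAEGs were called higher and 5 lower.

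**Figure D4:**
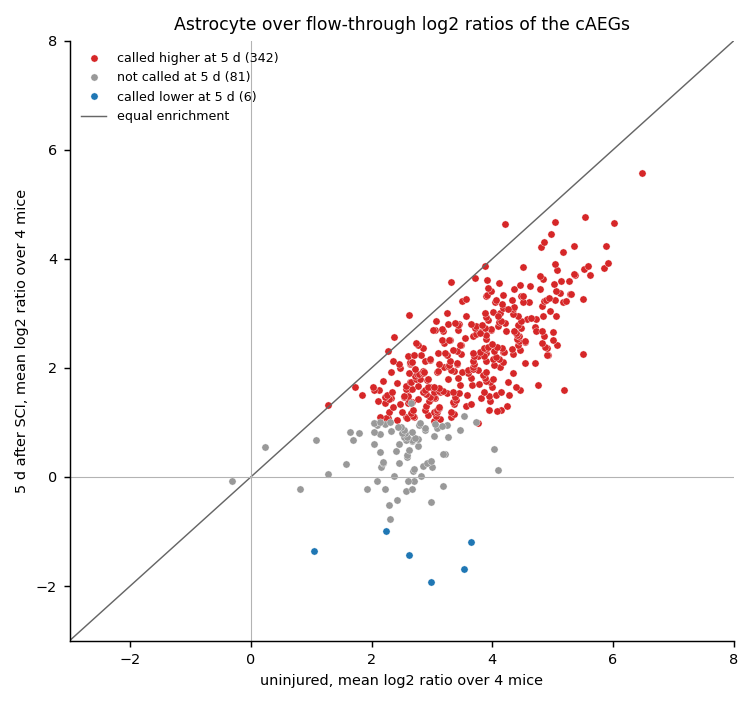
Mean log2 ratio of astrocyte over flow-through of each of the 429 cAEGs in 4 uninjured mice (x axis) and in 4 mice at 5 d (y axis), coloured by the call at 5 d, with the line of equal ratios. All but 8 of the genes lie below the line, since the mean ratio was lower at 5 d for 421, and 409 remain above 0 at 5 d.

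The cAEGs called lower at 5 days were Gdf10, Slc13a5, Fkbp10, Fzd2, Dio2 and Gm11627. Gdf10, a growth factor of the TGF-beta superfamily (chromosome 14, 33923587 to 33936514), had 12.7, 10.5, 8.91 and 16.2 CPM on the beads and 60.2, 34.6, 44 and 46.1 CPM in the flow-through, for a log2 ratio of -1.94 ± 0.20. In uninjured mice it had means of 43.8 and 5.52 CPM and a ratio of 2.98, so the ratio changed by -4.91 ± 0.24. The citrate transporter Slc13a5 went from 3.52 to -1.69, with its astrocyte level at 31.7 CPM before injury and 1.53 CPM at 5 days. Dio2, the enzyme that activates thyroid hormone, had 19.5, 25, 24.2 and 25.6 CPM on the beads and 28, 65.6, 65 and 73.3 CPM in the flow-through. Its ratio of -1.30 was not called without astrocyte library 3. The collagen chaperone Fkbp10 was at -1.45 and the Wnt receptor Fzd2 at -1.37, both with fractions that did not overlap. Gm11627 stayed under 1.5 CPM in every library, and its call at -1.03 was lost without several of the libraries.

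Other losses against uninjured mice were found for the apelin receptor Aplnr (-5.42), the water channel Aqp6 (-4.67), the activin-type receptor Acvr1c (-4.55) and Gpd1 (-4.34), the glycerol-3-phosphate dehydrogenase. Gpd1 fell from 1062 to 251 CPM on the beads while it rose from 109 to 519 CPM in the flow-through. Aplnr went from 234 to 27.3 CPM on the beads and from 12.1 to 60.6 CPM in the flow-through. By list, the losses reached 18 of 27 astrocyte transcription factors, 21 of 31 genes of lipid transport and fatty acid oxidation, 10 of 15 of transmitter uptake, 11 of 23 of cholesterol synthesis and 19 of 38 of fibrous matrix. The fraction in which the level moved differed among them. For transmitter uptake the median level was 1.94 log2 units lower on the beads and 0.92 lower in the flow-through, whereas for fibrous matrix it was 1.43 higher on the beads and 2.71 higher in the flow-through.

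Gains against uninjured mice included the following genes. Ctss, a lysosomal protease that trims the invariant chain, went from a ratio of -3.53 ± 0.26 in uninjured mice to 2.19 ± 0.15, a difference of 5.70 ± 0.19, as its astrocyte level went from 9.75 to 3419 CPM and its flow-through level from 111 to 745 CPM. Arhgap15, a GTPase-activating protein of leukocytes, and Ptger2, a prostaglandin E2 receptor, gained 5.65 and 5.47. Vgf, the precursor of secreted neuronal peptides, went from 8.45 to 438 CPM on the beads while the flow-through held 238 and 226 CPM, a difference of 5.77 ± 0.16. The neuropeptide gene Calca gained 5.49, from 0.501 to 4.53 CPM on the beads and from 32.4 to 6.41 CPM in the flow-through. Rnf128, a ubiquitin ligase, gained 5.22.

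All 16 pan-myeloid genes gained, as did 9 of 14 macrophage markers, 9 of 11 class II genes, 6 of 10 microglia markers and 9 of 24 chemokines. For pan-myeloid genes the median level was 6.99 log2 units higher on the beads than in uninjured mice and 3.60 higher in the flow-through. For class II genes these values were 4.50 and 1.45. Cd74 went from 30.6 ± 20.4 to 511 ± 53.6 CPM on the beads and was at 81.9 ± 40.3 and 70.3 ± 12.7 CPM in the flow-through (SD, n = 4). Mitochondrially encoded genes lost further, 10 of 13, with CYTB at 917 CPM on the beads before injury and 148 CPM at 5 days.

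**Figure D5:**
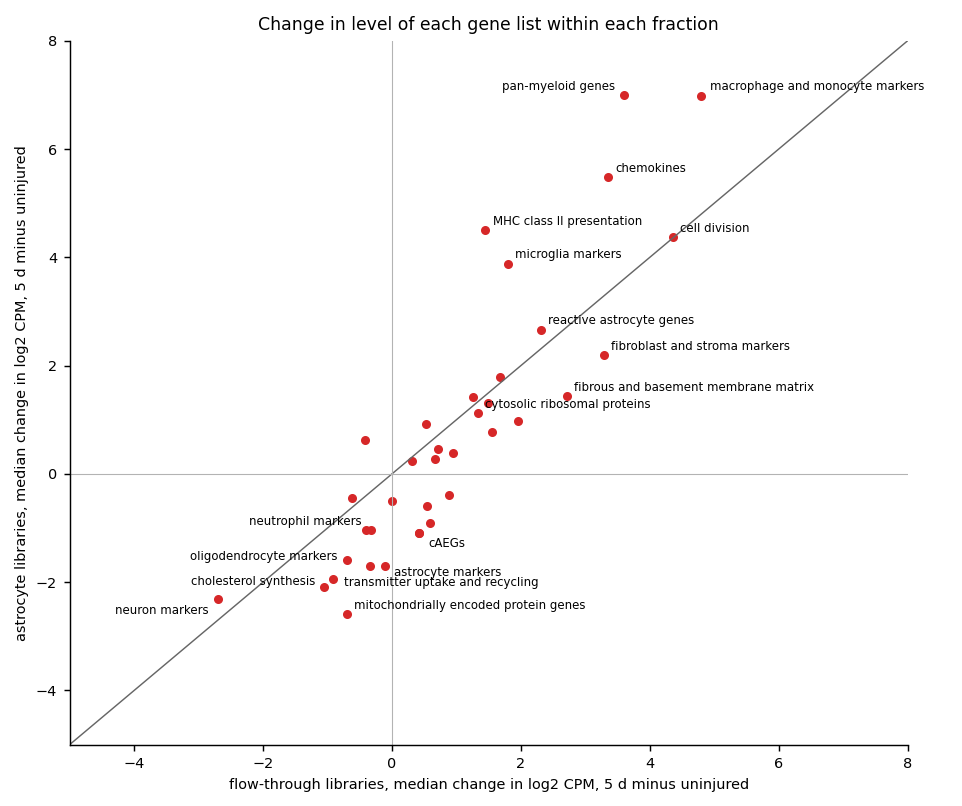
Median change in log2 CPM of each gene list from uninjured to 5 d, in the flow-through libraries (x axis) and the astrocyte libraries (y axis), with the line of equal change. Pan-myeloid genes and class II genes lie above the line, at 6.99 and 4.50 on the beads against 3.60 and 1.45 in the flow-through, cell division on it, and fibrous matrix and cAEGs below it.

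Against 2 days after SCI, the ratio was larger at 5 days for 2301 of 18198 genes (12.6%) and smaller for 2010 (11%). The libraries at 2 days need care. All 10 are labelled female, but the 5 flow-through libraries held 1975 to 5190 counts of the Y-linked Ddx3y and 0 to 30 of Xist, and astrocyte libraries 2 and 3 had no Ddx3y and 379 and 572 counts of Xist, so they did not match their same-numbered flow-through. The flow-through libraries there were also shallower, at 40710428 to 75175387 counts, and counts of lists are given without the libraries numbered 2 and 3 as well. Of 36 cell division genes, 24 gained and none lost (25 gained without those libraries). Of 23 cholesterol synthesis genes, 21 lost (21). Gains were also called for 17 of 38 fibrous matrix genes (17), 11 of 22 complement genes (11) and 10 of 16 pan-myeloid genes (10), and losses for 10 of 16 neuron markers (9). Of the cAEGs, 78 gained and 43 lost (75 and 43).

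Marco, a scavenger receptor of macrophages, went from 0.289 CPM on the beads at 2 days to 56.1 CPM at 5 days while the flow-through held 24.2 and 21.2 CPM, a difference of 7.77 ± 0.70. Atp6v0d2, a subunit of the proton pump of osteoclasts and macrophages, went from 3.28 to 69 CPM on the beads and from 42.5 to 10.2 CPM in the flow-through (6.45 ± 0.30). In the other direction, the tubulin Tubb2b changed by -6.67 ± 0.75, from 588 to 142 CPM on the beads and from 2.73 ± 2.22 to 68.9 ± 14.8 CPM in the flow-through (SD, n = 5 and 4). Slc10a6 changed by -6.36 ± 0.71, from 12.8 to 0.459 CPM on the beads.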

How the data were processed

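Per the paper's methods and the labels, poly-A selected RNA was sequenced as paired reads, and the authors joined the reads of both lanes, used Trimmomatic for trimming, HISAT2 for alignment to mm10 and featureCounts for counting per gene, at default settings; versions are not given in the sources used here. The deposited values are raw counts per Entrez gene, and of 27179 gene identifiers 25275 were named through RefSeq GRCm38.p6, which also gave coordinates and exon lengths for FPKM (25069 genes).

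The counts were tested with edgeR 4.0.16 (R 4.3.3): TMM, filterByExpr, robust quasi-likelihood fit, Benjamini-Hochberg adjustment over all genes tested, and calls at FDR under 0.01 and at least 2-fold. Each comparison of fractions was fitted on its own 8 libraries, and differences of ratios as an interaction over 16 or 18. These fits left out the pairing by mouse, so the SE and FDR given are those of unpaired libraries. With the mouse as a block, 2843 genes were higher and 3379 lower at 5 d. SE is that of the fitted log2 ratio; ratios per mouse use log2 CPM with a prior count of 2. Replicates are separate animals. Deviations from the fraction means of same-numbered libraries correlated at r = 0.188, 0.106, 0.214 and 0.184 at 5 d, and no other pairing passed 0.065, so numbers pair the fractions of a mouse; at 2 d, r was at most 0.0913. The mouse as a block, DESeq2 1.42.0, other scalings and filters and libraries left out were alternatives. Scripts were tested on simulated counts.

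Genes named with values are, by rule, Aldh1l1 and Rpl22, the highest and lowest called members of each list, the highest and lowest genes overall and in each difference, the lowest cAEGs and the most abundant genes. Members and lists were chosen with earlier results of these data known, and no list was tested as a set. Sequences were copied from RefSeq (GRCm38.p6). Libraries at 5 d held 93371943 counts or more, and whether counting or the spread between mice limits a value was not tested. Some genes that the rule names are not reported here.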

Additional observations from a re-analysis of the deposited data

Results flagged for a closer look

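Sample values that lay far from the other 3 libraries of their group (Dixon's criterion) were found in 15 of the 294 groups of values checked, where chance gives about 14.7, or 1 in 20. Rn45s in flow-through library 2 had 13037 CPM (1.41% of counts), Rn18s 1194 CPM (0.129%) and Lars2 444 CPM (0.0482%). Apoe was at 12935 CPM in the same library. Among astrocyte libraries, Rplp1 was at 721 CPM and E030003E18Rik at 41.8 CPM in library 3, H2-Aa at 186 CPM and Camp at 14.8 CPM in library 4, and Cd86 at 20.3 CPM in library 2. Among flow-through libraries, Marco was at 28.2 CPM and Itga6 at 7.02 CPM in library 3 and L1cam at 36.1 CPM in library 1.

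The difference between conditions was itself past the threshold for the genes with the largest changes of ratio. Against uninjured mice these were gains of Vgf (5.77), Ctss (5.70), Arhgap15 (5.65), Calca (5.49), Ptger2 (5.47) and Rnf128 (5.22), and changes of Aplnr (-5.42), Slc13a5 (-5.21), Dio2 (-4.93), Gdf10 (-4.91), Aqp6 (-4.67), Acvr1c (-4.55) and Gpd1 (-4.34). Against 2 days they were Marco (7.77), Aqp2 (6.85), Atp6v0d2 (6.45), Fosl1 (-12.32), Tubb2b (-6.67), Slc10a6 (-6.36) and Tuba1a (-6.35). Fosl1 had 0 CPM in all flow-through libraries at 2 d, so its fitted value depends on the prior count and is no bound, and Aqp2 had only 0.031 CPM on the beads there. The label of flow-through library 4 as male, and the Xist and Ddx3y counts at 2 days, were not resolved.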

How the results depend on the processing

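Each count of genes called stayed within 1.5 times its value under every alternative run. Leaving out single libraries gave 2747 to 2941 genes higher and 3272 to 3373 lower at 5 d, 2406 to 2642 gains and 1347 to 1505 losses against uninjured mice, 2121 to 2407 and 1750 to 2414 against 2 d, and 0 between males and females throughout. On total counts only, Actb went to -0.20, Ccnd1 to -0.11 and Tuba1a to -0.29, all from ratios near 0 on TMM. Leaving out single libraries moved Tuba1a between -0.13 and 0.16 (-0.067 without astrocyte library 2) and Aqp2 between -0.72 and 0.067. With the mouse as a replicate block, the males gave 2538 higher and 3083 lower calls, and among genes named in the report the block took the call from Rn45s (4.84), Rn18s (4.77), Lars2 (4.88) and Aplnr (-1.23). Rn45s and Rn18s also lost the call without 6 of the 8 single libraries, and Lars2 without flow-through library 3 (4.25) or 4 (4.24). Genes called by a small margin lost the call when single libraries were left out, which was so for Camp (1.99 without flow-through library 1, 2.33 without astrocyte library 2), Ccl4 (-1.16 without flow-through library 2, -1.37 without astrocyte library 2), Gm11627 (-0.87 without astrocyte library 2), Aplnr (-0.98 without astrocyte library 3), Irf7 (-0.84 without flow-through library 2), Gpd1 (-0.98 without flow-through library 3), Dio2 (-1.28 without astrocyte library 3), Cd55 (-0.92 without flow-through library 4) and Ndufs1 (0.94 without flow-through library 2). In the fit of all Aldh1l1 female libraries, Fosl1 (1.48, adjusted p = 0.02 by edgeR), Slc10a6 (-1.42, 0.053), Marco (1.41, 0.0115), Irf7 (-1.001, 0.0102), Cd55 (-0.996, 0.022) and Gm11627 (-0.96, 0.052) lost the call. On total counts only, Camp (1.89), Ctsb (0.77), Sdha (0.84) and Ndufs1 (0.70) did. The causes were not tested. The values rest on 4 mice, on 1 scaling of fractions that differ in composition, and on counting that assigned ribosomal and mitochondrial reads at default settings. Labels of sex and number at 2 d were doubtful, and results against 2 d are limited by that.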

Other observations

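The list of nuclear and structural noncoding RNAs, which also held the protein-coding gene Lars2, had 9 of 17 members lower on the beads and 5 higher. Mirg (-4.32), Snhg11 (-4.31) and Meg3 (-3.50) had the lowest ratios of that list and Lars2 (4.45) the highest. Of 12 neutrophil genes, 6 were higher on the beads at 5 d, and against uninjured cord 1 gained and none lost. The list was already on the side of the beads in uninjured mice, with a median ratio of 2.51 there and 2.02 at 5 d. From uninjured to 5 d its median level changed by -1.045 log2 units on the beads and -0.324 in the flow-through. Most members overlapped between the 2 groups of mice. On the beads 2 of 12 lay above all uninjured libraries and 1 below, and in the flow-through 1 lay above and 0 below. Mmp8, a collagenase of neutrophil granules, had a mean of 24.3 CPM on the beads and 3.74 CPM in the flow-through (log2 ratio 2.70 ± 0.22), and the antimicrobial peptide Camp had 6.51 and 1.45 CPM (2.17 ± 0.58).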
